A study of Homo sapiens with 30 samples.

Results

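The genes described here are 7 lineage-determining transcription factors, FOXA1, FOXA2, FOXA3, HNF4A, HNF4G, GATA2 and GATA6. They were taken by gene name from a table of 58780 genes and followed through every group of the series. The assay was PRO-seq (precision run-on sequencing), which reads RNA that engaged polymerases have just extended, so it reports ongoing transcription and not stored mRNA. The cells were A549, a human lung adenocarcinoma line. There were 30 libraries in 15 groups of 2. One group was untreated cells, labelled with 15 min in vehicle. Dexamethasone (Dex, a synthetic glucocorticoid) was given at 100 nM for 15 min or 3 h, or for 3 h together with GSK591 or with MS023. GSK591 inhibits PRMT5, an arginine methyltransferase, and MS023 inhibits the Type I arginine methyltransferases. Both were given at 1 µM, each alone for 2, 4 or 7 days. Each was also given for 7 days with Dex for 15 min or 3 h at the end. All 15 groups, untreated cells included, were in 0.01% DMSO, and the same untreated group served every treatment time. No genetic change was made to the line, and the labels do not say whether the 2 libraries of a group came from separate cultures.

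FOXA proteins are forkhead factors that can bind their sites in closed chromatin and open it for other factors, for which they are called pioneer factors. In lung, liver, gut and pancreas they act early in the choice of endodermal fate, and in many epithelial cells they lie beside nuclear receptors such as the glucocorticoid receptor on chromatin. HNF4A and HNF4G are orphan nuclear receptors that drive liver and gut genes. GATA2 and GATA6 are zinc-finger factors of the GATA family; GATA6 is needed for distal lung epithelium, and GATA2 is best known from blood stem cells and endothelium. Protein arginine methyltransferases modify histones, splicing factors and other RNA-binding proteins.

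Gene positions are those of GENCODE 29 (GRCh38; the deposited data are on hg38 per the submitters' processing notes). FOXA1 (ENSG00000129514.5) is on the minus strand of chromosome 14 from 37589984 to 37596059, with 3982 exonic bases in 4 merged exons. FOXA2 (ENSG00000125798.14) is on the minus strand of chromosome 20 from 22581005 to 22585455 with 2603 exonic bases. FOXA3 (ENSG00000170608.2) is on the plus strand of chromosome 19 from 45863989 to 45873797 with 2192 exonic bases. HNF4A (ENSG00000101076.16) is on the plus strand of chromosome 20 from 44355700 to 44434596 with 7311 exonic bases. GATA2 (ENSG00000179348.11) is on the minus strand of chromosome 3 from 128479427 to 128493185 with 4459 exonic bases. GATA6 (ENSG00000141448.8) is on the plus strand of chromosome 18 from 22169443 to 22202528 with 3945 exonic bases. Parts of some exons are shared with other annotated genes. For GATA6, 240 exonic bases (6.08%) overlap GATA6-AS1 and 321 (8.14%) overlap AC091588.3, both on the opposite strand. FOXA2 shares 70 bases (2.69%) with AL121722.1 on its own strand, and FOXA1 shares 16 with TTC6 on the opposite strand. Whether the counting used strand is not given in the sources used here, so reads of GATA6 and its antisense partners cannot be told apart.

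Sequence upstream of the RefSeq start sites (GRCh38.p14) was available for 5 of the 7 genes, FOXA1, FOXA3, HNF4A, GATA2 and GATA6; FOXA2 and HNF4G had no entry. Shown are FOXA1, the gene that fell after 3 h of Dex, and the regions before both listed starts of HNF4A, the gene with the lowest adjusted p between the inhibitors at 7 days. Each is written 5′ to 3′ on the gene's strand, without bases that GENCODE 29 annotates as exon. Capitals mark matches to 1 of 5 short motifs searched on both strands of the 250 bases before each start. These were the forkhead core TGTTTAC, the GATA motif AGATAA, the glucocorticoid half-site AGAACA, the HNF4 half-site CAAAGT and the TATA motif TATAAA. The first is 151 bases at chr14:37595349-37595499 (minus strand), the second 250 bases at chr20:44355449-44355698 and the third 250 bases at chr20:44400989-44401238 (both plus strand).
FOXA1: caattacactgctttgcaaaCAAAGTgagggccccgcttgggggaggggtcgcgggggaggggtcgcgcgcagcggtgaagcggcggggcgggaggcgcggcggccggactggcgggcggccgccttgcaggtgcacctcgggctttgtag
HNF4A, upstream start: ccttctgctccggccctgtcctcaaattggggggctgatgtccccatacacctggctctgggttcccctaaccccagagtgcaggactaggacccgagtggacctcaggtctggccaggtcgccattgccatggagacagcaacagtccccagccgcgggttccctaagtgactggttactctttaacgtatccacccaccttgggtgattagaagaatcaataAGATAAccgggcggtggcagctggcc
HNF4A, downstream start: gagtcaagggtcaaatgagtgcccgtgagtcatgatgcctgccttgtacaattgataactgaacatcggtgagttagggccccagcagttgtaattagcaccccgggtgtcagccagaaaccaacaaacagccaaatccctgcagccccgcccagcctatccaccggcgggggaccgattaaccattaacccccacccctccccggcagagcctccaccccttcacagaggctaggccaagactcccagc
The RefSeq start of FOXA1 lies 810 bases downstream of its GENCODE 29 start, and that of FOXA3 337 bases downstream. The windows of both therefore lie inside the gene as placed above, as do those of the downstream HNF4A start and the second GATA2 start. The FOXA1 window held CAAAGT, 230 bases before the RefSeq start, and the upstream HNF4A window held AGATAA, 26 bases before the start. The downstream HNF4A window held none of the 5 motifs. In the windows not shown, FOXA3 had TATAAA 30 bases before its start, the first GATA2 window had CAAAGT 43 bases before its start, and GATA6 and the second GATA2 window had none. Over the 35116 promoters of this length in the table, TGTTTAC was found in 2.98%, AGATAA in 9.17%, AGAACA in 12.4%, CAAAGT in 10.3% and TATAAA in 10.7%. The GC content was 75.2% for FOXA3, 67.2% for FOXA1 and 58.4% and 58.0% for the HNF4A windows, beside a median of 58.0% over all promoters. A match is a run of letters and not a measured binding site, and gene counts cannot assign reads to one HNF4A start or the other.

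Total counts per library ran from 8441211 to 13069598 (median 10141639.5), of which mitochondrial genes took 58.7% to 78.7%. The nonmitochondrial genes had 2541528 to 3957508 counts. Across 9628 genes the log2 levels of the 2 libraries of a group correlated with r between 0.916 and 0.983. The second library of Dex with MS023 stood apart by its processed-pseudogene share, 0.781% of counts against 0.293% to 0.564% in the others. Levels are given in CPM (counts scaled to a common library total) after TMM scaling, the edgeR factor that adjusts for library composition. Keratin and NRF2-target genes typical of A549 were found in all 30 libraries, at unlike mean levels. Of the keratins KRT7 had 254 CPM, KRT8 261, KRT18 111 and KRT19 14.5. Of the NRF2 targets AKR1C1 had 228 CPM, AKR1B10 160, ALDH1A1 135, NQO1 30.5 and GCLM 24.3. The epithelial adhesion genes EPCAM (2.55 CPM) and CDH1 (2.93) were low. Markers of other cell types were mixed. Of the club and goblet markers MUC5B averaged 25.2 CPM and MUC5AC 10.8, and SCGB1A1 0.148 and SCGB3A2 0.0146. Of the alveolar markers, NKX2-1 (mean 0.183 CPM, above 0 in 20 of 30 libraries) and SFTPA2 (0.0396 CPM, above 0 in 6) were near 0, whereas SFTPB (7.25 CPM), NAPSA (3.90) and SFTPC (1.96) were above 0 in all 30. Of the hepatocyte markers, ALB averaged 0.152 CPM and TTR 0.0844, and APOA1 1.14. Of the immune markers, PTPRC averaged 0.136 CPM and CD14 2.56.

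FOXA2 and FOXA1 had the highest levels of the 7 genes per exonic length, and FOXA3 varied most between groups. Averaged over the 15 groups, the level was 8.89 CPM per exonic kilobase for FOXA2, 6.36 for FOXA1, 1.61 for HNF4A, 1.25 for FOXA3, 1.09 for GATA2, 0.882 for HNF4G and 0.526 for GATA6. In untreated cells the order differed, with FOXA1 (7.07 CPM per exonic kilobase) above FOXA2 (6.20) and FOXA3 (0.426) below GATA6 (0.453). The ratio of the highest to the lowest group mean was 9.07 for FOXA3, 4.91 for GATA6, 2.70 for FOXA1, 2.48 for FOXA2, 2.18 for GATA2, 1.87 for HNF4G and 1.85 for HNF4A. All 7 passed the filter on low counts. Depth was thin for GATA6, with 4 to 53 counts in a library, and for FOXA3, with 3 to 121. The groups of each gene were put in order of their means. The 2 libraries of neighbouring groups overlapped in 14 of 14 steps for GATA2 and in 13 for HNF4G. Neighbours overlapped in 11 of 14 steps for HNF4A and GATA6, in 10 for FOXA1 and FOXA2, and in 8 for FOXA3. At those steps the order of the neighbours did not exceed the spread. Overlap of neighbours does not tell whether groups further apart in the order overlap. Some such groups of GATA2 and HNF4G were separate from untreated cells, as the following counts show. Both libraries lay above both untreated libraries in all 14 treated groups for FOXA2 and in 9 for FOXA3 and below them in 0 groups. For FOXA1 that was 4 groups above and 7 below, for HNF4A and HNF4G 4 and 4, for GATA6 4 and 1, and for GATA2 1 and 2. All of these counts use the same 2 untreated libraries, and the share of all genes separated in this way was not computed. In the tests described below, 6 of the 14 groups were called for FOXA2 and 7 for FOXA3.

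**Figure D1:**
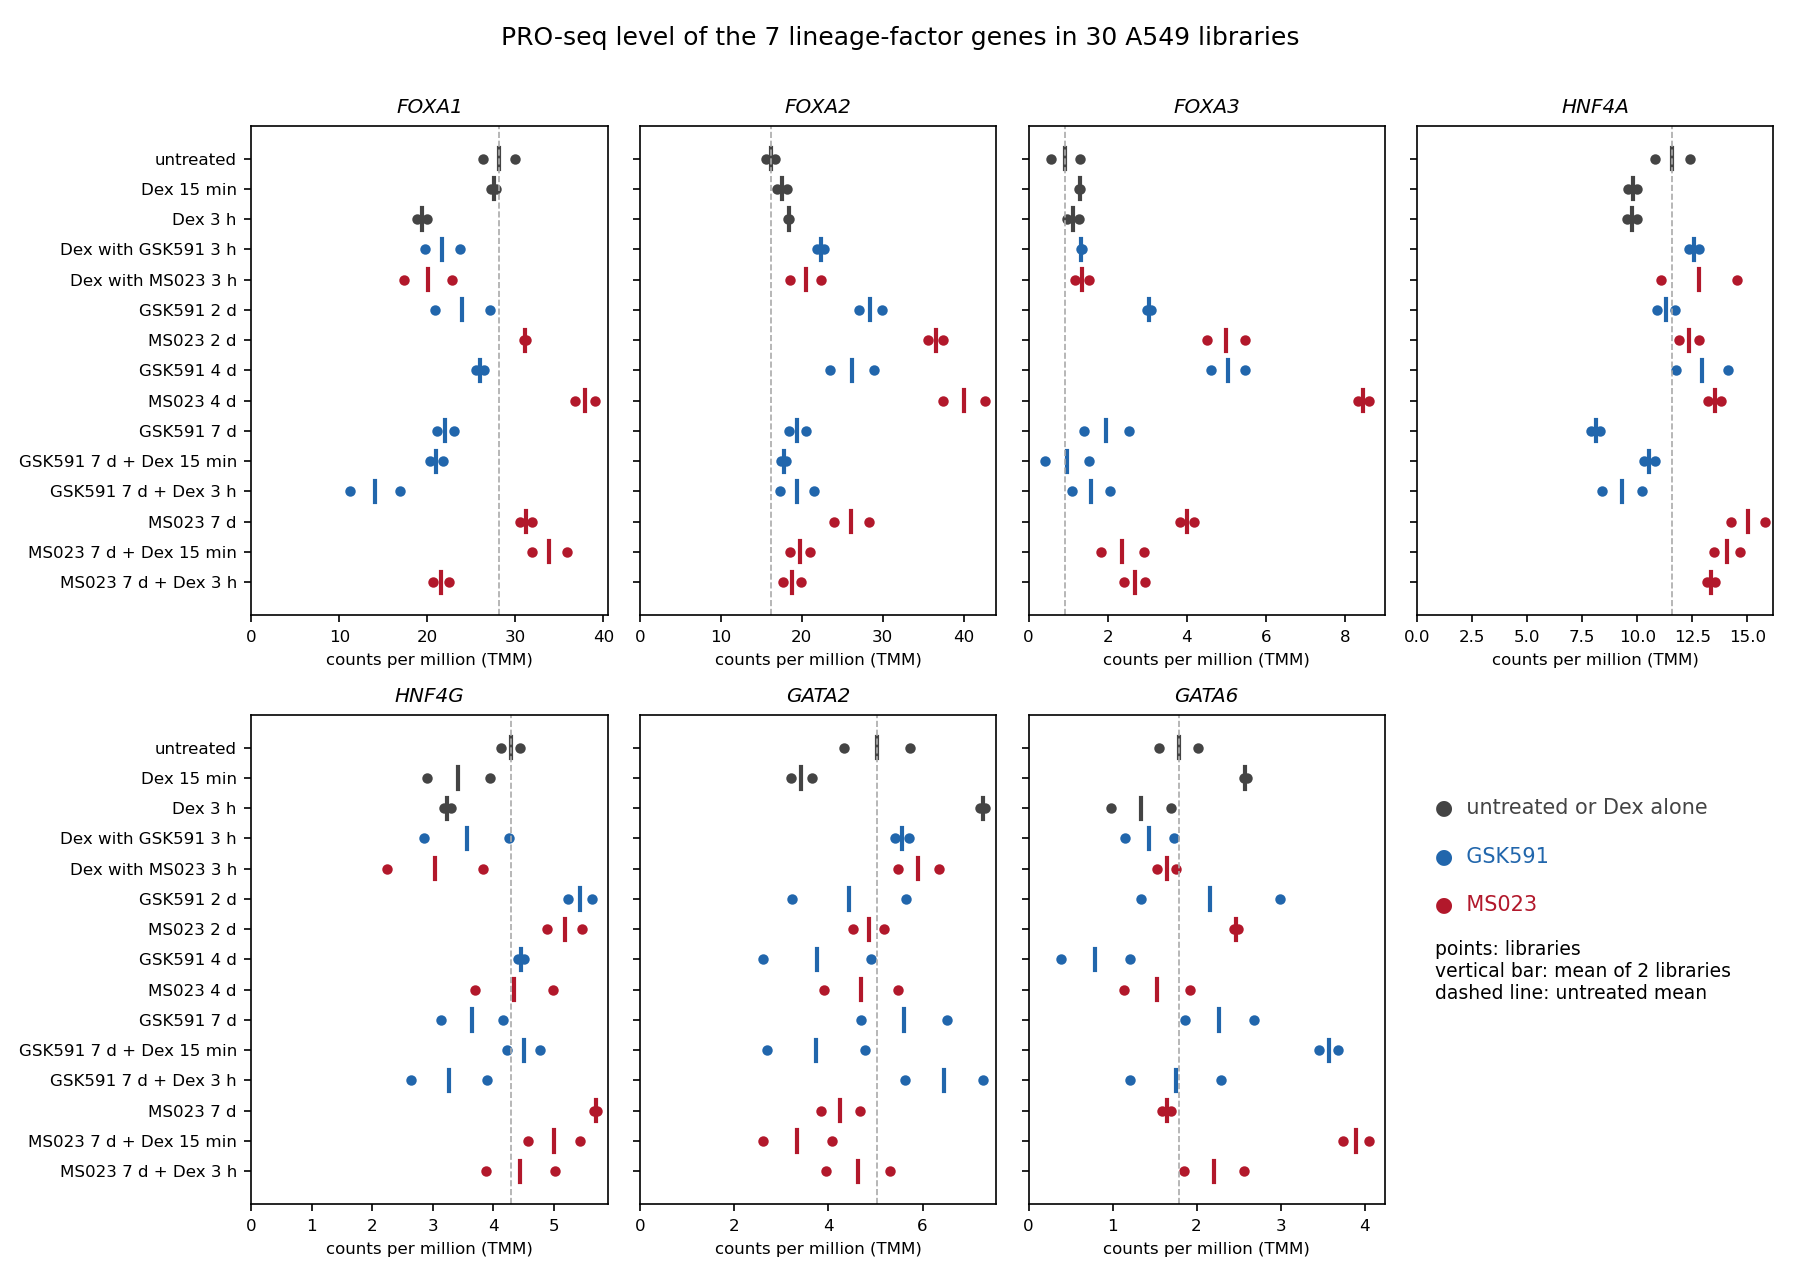
Level of each gene (x axis, CPM after TMM scaling, from 0) in the 15 groups (y axis). Points are single libraries, the short bar is the mean of 2 libraries, the dashed line is the untreated mean, and colour marks untreated or Dex alone, GSK591 and MS023. FOXA2 and FOXA3 lie highest with MS023 for 4 days, at means of 40.0 and 8.47 CPM.

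Each treated group was compared with untreated cells to ask whether transcription of the 7 genes had changed. A gene was called when its p from the edgeR quasi-likelihood test, adjusted by Benjamini-Hochberg over all 22919 tested genes, was under 0.05; log2 fold changes are given with their standard error (SE), and all 14 comparisons share the 2 untreated libraries. Of 98 tests, 21 were called, 15 higher and 6 lower. With total counts as the only scaling there were 37 calls, 36 higher and 1 lower, where the median log2 fold change of all genes also moved, by up to 1.02 (MS023 for 7 days). The share of all genes called under that scaling ran from 1.14% (Dex for 15 min) to 70.7% (MS023 for 7 days). All directions below are therefore relative to the bulk of the genes. With an inhibitor alone the calls were mainly FOXA2 and FOXA3. After 2 days of GSK591, 2 of 7 genes were called, FOXA2 and FOXA3, where 5.64% of all tested genes were called. The same 2 genes were called after 2 days of MS023 (10.4% of all genes) and after 4 days of GSK591 (17.2%). MS023 for 4 days gave 3 calls with FOXA1 added, beside 14.2% of all genes. At 7 days GSK591 gave 1 call, HNF4A lower (13.2%), and MS023 gave 2, FOXA2 and FOXA3 higher (13.6%). The median log2 fold change of the 7 genes was 0.30 after 2 days of GSK591, 0.27 after 2 days of MS023 and 0.37 after 7 days of MS023, where that of all tested genes was 0.00, 0.00 and 0.01.

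Groups that had received Dex gave fewer calls, and most were FOXA1. Dex for 15 min gave no call among the 7 genes, beside 1.26% of all genes. Dex for 3 h gave 1, FOXA1 lower (10.5%). Dex with GSK591 gave 1, FOXA2 higher (11.9%), and Dex with MS023 gave 1, FOXA1 lower (12% of all genes). After 7 days of GSK591, adding Dex for 15 min left 1 call against untreated cells, FOXA1 lower (15.5%), and Dex for 3 h also 1, FOXA1 lower (26.8%). After 7 days of MS023 with Dex for 15 min there were 2 calls, FOXA3 and GATA6 higher (17.2%), and with Dex for 3 h 2, FOXA3 higher and FOXA1 lower (21.9%). The member shares in these Dex comparisons were 0% to 28.6% and lay on both sides of the shares of all genes. HNF4G and GATA2 were not called in any comparison.

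**Figure D2:**
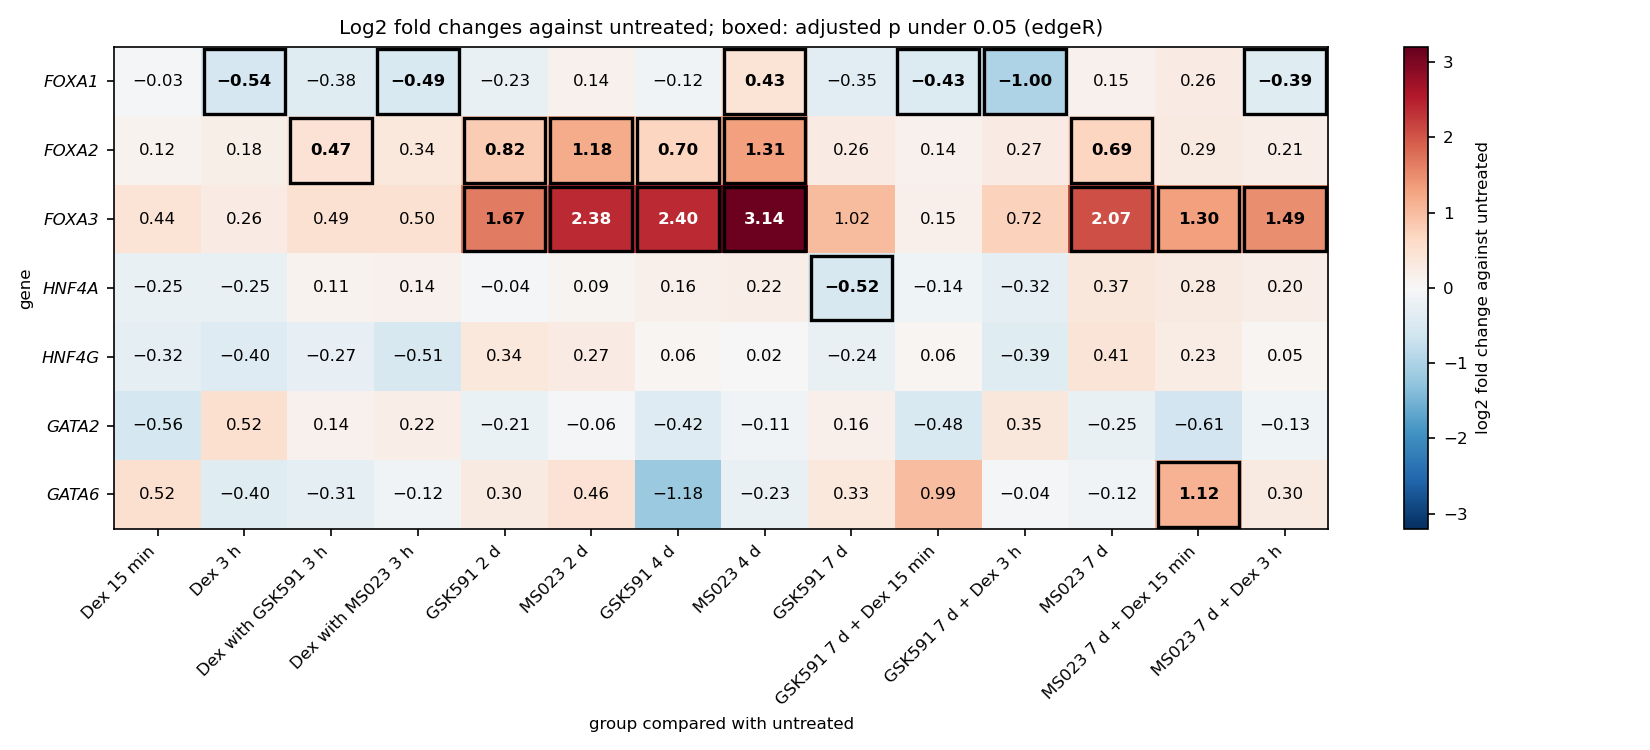
Log2 fold change against untreated cells for each gene (y axis) in the 14 treated groups (x axis); red is higher, blue is lower, and boxed bold values were called by the edgeR test. The FOXA2 and FOXA3 rows are boxed under the inhibitors alone except after 7 days of GSK591, with 3.14 for FOXA3 after 4 days of MS023 as the highest value.

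FOXA2, which had the highest level of the 7 genes per exonic length averaged over the 15 groups, rose under both inhibitors at 2 and 4 days. Untreated libraries had 15.6 and 16.7 CPM. The libraries had 27.0 and 29.9 CPM after 2 days of GSK591 and 35.6 and 37.5 after 2 days of MS023. At 4 days they had 23.5 and 28.9 CPM with GSK591 and 37.4 and 42.7 with MS023. All of these lay above the untreated libraries, and those with MS023 lay above those with GSK591. The log2 fold change against untreated was 0.82 (SE 0.14, adjusted p 0.000167) and 1.18 (SE 0.13, adjusted p 1.09e-08) after 2 days of GSK591 and MS023. At 4 days it was 0.70 (SE 0.14, adjusted p 0.000199) and 1.31 (SE 0.13, adjusted p 2.01e-10). At 7 days the GSK591 libraries had come to 18.4 and 20.5 CPM, a log2 fold change of 0.26 that was not called, and the MS023 libraries stood at 28.3 and 24.0 CPM with 0.69 (SE 0.14, adjusted p 0.000233). These 5 rises were called in every alternative analysis and without any single library. The MS023 libraries, Dex after MS023 included, had mitochondrial shares of 58.7% to 66.1% where untreated libraries had 73.4% and 76.0%; in a fit without mitochondrial and rRNA genes the 5 rises were called as well.

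FOXA2 was not called with Dex alone. Dex gave 16.9 and 18.2 CPM at 15 min and 18.4 and 18.3 at 3 h. With GSK591 added for those 3 h the libraries had 21.8 and 22.8 CPM, 0.47 above untreated on the log2 scale (SE 0.14, adjusted p 0.0207). That call was lost when any one of its 4 libraries was left out (0.42 to 0.52) and under DESeq2, a second count test (adjusted p 0.0718). Adding 3 h of Dex after 7 days of MS023 brought FOXA2 to 17.6 and 19.9 CPM, below both libraries of MS023 alone.

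FOXA3, the most liver-restricted member of the FOXA group, was barely transcribed in untreated cells and rose most. Untreated libraries had 0.556 and 1.31 CPM, from 5 and 13 counts. The level was 3.09 and 2.99 CPM after 2 days of GSK591 and 5.48 and 4.52 after 2 days of MS023. It was 5.47 and 4.61 CPM after 4 days of GSK591 and 8.60 and 8.33, from 121 and 117 counts, after 4 days of MS023. None of these groups overlapped untreated cells. Log2 fold changes were 1.67 (SE 0.42, adjusted p 0.00998) and 2.38 (SE 0.37, adjusted p 1.00e-05) at 2 days of GSK591 and MS023, and 2.40 (SE 0.38, adjusted p 4.09e-06) and 3.14 (SE 0.35, adjusted p 1.92e-09) at 4 days. After 7 days the MS023 libraries had 4.18 and 3.84 CPM, 2.07 above untreated (SE 0.38, adjusted p 8.61e-05). The GSK591 libraries at 7 days had 1.39 and 2.55 CPM, both above the untreated pair, and the difference of 1.02 was not called (adjusted p 0.135).

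In libraries that received Dex at the end of 7 days of MS023, FOXA3 was 1.84 and 2.91 CPM at 15 min and 2.42 and 2.95 at 3 h. Both groups were called against untreated, by 1.30 (SE 0.41, adjusted p 0.0205) and 1.49 (SE 0.40, adjusted p 0.00436). Because the first untreated library held only 5 FOXA3 counts, each fold change moved with the untreated pair. Without untreated replicate 1 the change after 4 days of MS023 was 2.68 and without replicate 2 it was 3.91. The calls after 2 and 7 days of MS023 and after 4 days of either inhibitor stood without any single library. Without untreated replicate 1, 3 others were lost: GSK591 for 2 days (1.20, adjusted p 0.213), MS023 with Dex for 15 min (0.84, adjusted p 0.296) and MS023 with Dex for 3 h (1.03, adjusted p 0.145). GSK591 for 2 days was also lost without either of its own libraries (1.65 and 1.69), and MS023 with Dex for 15 min without its replicate 2 (0.94) and under DESeq2 (adjusted p 0.0709).

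FOXA1, the family member that partners with steroid receptors in many epithelia, fell after 3 h of Dex. Untreated libraries had 26.4 and 29.9 CPM and those with Dex for 15 min 27.2 and 27.8. Dex for 3 h gave 20.0 and 18.8 CPM, below both, a log2 fold change of -0.54 (SE 0.14, adjusted p 0.00901). These are bulk libraries, so a lower level cannot be divided into fewer transcribing cells and less signal in each cell. The levels were 19.7 and 23.7 CPM when GSK591 came with Dex, not called (-0.38, adjusted p 0.0755), and 22.9 and 17.3 when MS023 did (-0.49, SE 0.14, adjusted p 0.0153). After 7 days of GSK591, Dex for 15 min and 3 h gave 21.7 and 20.3, and 16.9 and 11.2 CPM. The log2 fold changes against untreated were -0.43 (SE 0.14, adjusted p 0.0345) and -1.0 (SE 0.15, adjusted p 7.58e-07). After 7 days of MS023, Dex for 15 min left 31.8 and 35.9 CPM, above both untreated libraries and not called, and Dex for 3 h gave 20.7 and 22.4, below both (-0.39, SE 0.14, adjusted p 0.0361). Without Dex, FOXA1 was called in 1 group, after 4 days of MS023, where 36.8 and 39.1 CPM stood 0.43 above untreated (SE 0.13, adjusted p 0.0215).

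Of these 6 FOXA1 calls, 1 did not depend on any single library or setting, the fall after 7 days of GSK591 and 3 h of Dex (-1.33 to -0.74 with a library left out). The fall after 3 h of Dex alone was lost without untreated replicate 2 (-0.44, adjusted p 0.157) or without its own replicate 2 (-0.49, adjusted p 0.0999). That of Dex with MS023 was lost without untreated replicate 2 (-0.40, adjusted p 0.206) and without its own replicate 2 (-0.30, adjusted p 0.284), the library with the high pseudogene share. The call after GSK591 and 15 min of Dex was lost without untreated replicate 2 (-0.34) and without either of its own libraries (-0.48 and -0.38). The rise after 4 days of MS023 was lost without untreated replicate 1 (0.35) and without either of its own libraries (0.47 and 0.39). The fall after MS023 with 3 h of Dex was lost without any one of its 4 libraries (-0.47 to -0.29), and when libraries were scaled by total counts alone its sign turned to 0.62. The other settings that ended FOXA1 calls were total counts (Dex for 3 h -0.38, Dex with MS023 -0.03, GSK591 with 15 min of Dex -0.41), DESeq2 (adjusted p 0.0678, 0.0684, 0.157 and 0.131 for Dex with MS023, MS023 for 4 days, GSK591 with 15 min of Dex and MS023 with 3 h of Dex) and the pseudogene share as a covariate (Dex with MS023 -0.32 and MS023 with 3 h of Dex -0.24). Under total counts the median of all genes moved to 1.00 for MS023 with 3 h of Dex, so FOXA1 lay below the median there too. Calls also ended without the filter on low counts (MS023 with 3 h of Dex, adjusted p 0.0610), with the DESeq2 size factors (GSK591 with 15 min of Dex, 0.0519) or in a fit of the compared groups alone (Dex with MS023, 0.205, and GSK591 with 15 min of Dex, 0.0778).

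HNF4A, the liver and gut nuclear receptor, changed little against untreated cells. Its group means ran from 8.11 to 15.0 CPM. Untreated libraries had 10.8 and 12.4 CPM, Dex for 15 min 9.97 and 9.60 and Dex for 3 h 9.99 and 9.52. The inhibitors gave 10.9 and 11.7 CPM (GSK591) and 12.8 and 11.9 (MS023) at 2 days, and 14.1 and 11.7 (GSK591) and 13.2 and 13.8 (MS023) at 4 days. At 7 days the inhibitors parted, with 7.90 and 8.31 CPM after GSK591 and 14.2 and 15.8 after MS023. GSK591 lay below both untreated libraries (-0.52, SE 0.18, adjusted p 0.0392). That call was lost when any one of its 4 libraries was left out (-0.62 to -0.41) and under 4 of 8 alternatives, among them DESeq2 (adjusted p 0.162). MS023 lay above both untreated libraries and was not called (0.37, adjusted p 0.101).

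HNF4G (ENSG00000164749.11), the second HNF4 receptor, is on the plus strand of chromosome 8 from 75407914 to 75566843 with 4806 exonic bases. It had 4.45 and 4.13 CPM in untreated cells. Its lowest group was Dex with MS023 (3.83 and 2.25 CPM) and its highest MS023 for 7 days (5.67 and 5.72 CPM). Neither differed from untreated beyond the test's threshold (-0.51, adjusted p 0.261, and 0.41, adjusted p 0.293). GATA2 had 4.34 and 5.74 CPM in untreated cells and was highest after 3 h of Dex, at 7.23 and 7.33 CPM, above both. That difference of 0.52 was not called (SE 0.27, adjusted p 0.251). It was lowest after MS023 with 15 min of Dex, at 2.60 and 4.08 CPM (-0.61, SE 0.29, adjusted p 0.150). With SEs of about 0.27 for these genes, differences as large as -0.61 were not called at this depth. Changes of that size or smaller are therefore not excluded.

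GATA6, the GATA factor of lung and gut epithelium, had the lowest level per exonic length averaged over the 15 groups and stood highest in the groups given Dex for 15 min after 7 days of an inhibitor. Untreated libraries had 1.56 and 2.02 CPM, from 14 and 20 counts. Dex for 15 min gave 2.57 and 2.60 CPM, above both and not called (0.52, adjusted p 0.875). The same 15 min gave 3.69 and 3.46 CPM after 7 days of GSK591 (0.99, SE 0.38, adjusted p 0.0657) and 4.06 and 3.75, from 53 and 45 counts, after 7 days of MS023. Only the last was called, at 1.12 (SE 0.36, adjusted p 0.0235). At 3 h the levels were 1.70 and 0.977 CPM with Dex alone, 1.21 and 2.29 after GSK591 and 2.56 and 1.85 after MS023, and each pair overlapped untreated cells. The lowest group was 4 days of GSK591, at 0.384 and 1.20 CPM from 4 and 12 counts, which was not called (-1.18, adjusted p 0.0785). The call after MS023 and 15 min of Dex was lost without any one of its 4 libraries (0.94 to 1.31) and under DESeq2 (adjusted p 0.110). GATA6-AS1, which shares exonic bases with GATA6, was called higher after GSK591 with 15 min of Dex (1.05, adjusted p 0.0327) and not after MS023 with 15 min of Dex; its part in the GATA6 counts was not tested.

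The 3 h groups that received Dex and an inhibitor at once were compared with Dex alone for 3 h, to ask what the inhibitor added. None of the 7 genes was called for GSK591, where 0% of all genes were called, and none for MS023, where 0.196% were. Of these 14 tests, 3 had an unadjusted p under 0.05 by edgeR, and DESeq2 called 0. Among all 22919 genes the unadjusted edgeR p was under 0.05 for 1306 (GSK591) and 3222 (MS023). HNF4A had the lowest unadjusted p in both, at 0.36 (SE 0.17, adjusted p 0.850) with GSK591 and 0.38 (SE 0.17, adjusted p 0.274) with MS023.

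The Dex response after 7 days of an inhibitor was read by comparing these cells with the same inhibitor without Dex. At 15 min no gene was called after GSK591 (2.09% of all genes) and 1 after MS023 (2.07%), GATA6. It rose from 1.70 and 1.59 CPM to 4.06 and 3.75, by 1.24 (SE 0.34, adjusted p 0.0350), a call that was lost without any one of the 4 libraries (1.19 to 1.29). At 3 h, 1 gene was called after GSK591 (9.85%), FOXA1, at -0.65 (SE 0.16, adjusted p 0.00310). After MS023 2 were called (11.1%), FOXA1 at -0.53 (SE 0.13, adjusted p 0.00384) and FOXA2 at -0.48 (SE 0.13, adjusted p 0.00785). The fall of FOXA1 went from 23.0 and 21.0 to 16.9 and 11.2 CPM after GSK591, and from 31.9 and 30.5 to 20.7 and 22.4 after MS023, with no overlap in either. The GSK591 call was lost without replicate 1 of GSK591 for 7 days (-0.58, adjusted p 0.0754) or replicate 2 with Dex (-0.39, adjusted p 0.246). Without replicate 1 of MS023 for 7 days FOXA1 gave -0.49 (adjusted p 0.0575) and FOXA2 -0.34 (adjusted p 0.217). Without replicate 1 of MS023 with 3 h of Dex they gave -0.47 (adjusted p 0.0890) and -0.39 (adjusted p 0.170). With total counts as the only scaling all 4 of these calls were lost, with adjusted p of 0.201 to 0.367.

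The difference between the Dex response after an inhibitor and that in untreated cells was tested as an interaction. No gene of the 7 was called in 28 tests. The shares of all genes called were 0.00436% for GSK591 and for MS023 at 15 min and 0.223% for each at 3 h. By edgeR 5 of the 28 had an unadjusted p under 0.05, and DESeq2 called none of the 28. Among all 22919 genes the unadjusted edgeR p was under 0.05 for 1569 (GSK591) and 1023 (MS023) at 15 min. At 3 h it was for 2035 (GSK591) and 2087 (MS023). FOXA1 responded to 3 h of Dex by -0.54 without an inhibitor, and the response differed by -0.11 (SE 0.21) after GSK591 and 0.00 (SE 0.19) after MS023. FOXA2 gave the lowest unadjusted p, with an interaction of MS023 and 3 h of Dex of -0.66 (SE 0.19, adjusted p 0.152), which was not called. GATA6 at 15 min differed by 0.14 (SE 0.54) after GSK591 and 0.72 (SE 0.52) after MS023. Its SEs leave room for differences in either direction.

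The inhibitors act on different enzymes, and they were compared at matched dose and time in 3 pairs of groups. At each of 2, 4 and 7 days FOXA1, FOXA2 and FOXA3 were lower in both GSK591 libraries than in both MS023 libraries. At 2 days none of the 7 genes was called (2.69% of all genes), with differences of -0.37 for FOXA1, -0.36 for FOXA2 and -0.71 for FOXA3. At 4 days 2 were called (6.03%), FOXA1 at -0.55 (SE 0.13, adjusted p 0.00592) and FOXA2 at -0.61 (SE 0.13, adjusted p 0.000780). At 7 days 4 of 7 were called (9.38%), FOXA1 at -0.50 (SE 0.14, adjusted p 0.0148), FOXA2 at -0.43 (SE 0.14, adjusted p 0.0338), FOXA3 at -1.04 (SE 0.34, adjusted p 0.0413) and HNF4A at -0.89 (SE 0.17, adjusted p 0.000137). HNF4G at 7 days was also lower in both GSK591 libraries, 3.14 and 4.15 against 5.67 and 5.72 CPM, and was not called (-0.65, adjusted p 0.112). GATA2 and GATA6 went the other way at 7 days and were not called. Both GSK591 libraries lay higher, at 6.51 and 4.69 against 4.67 and 3.84 CPM for GATA2. For GATA6 they had 1.86 and 2.68 against 1.70 and 1.59 CPM. The share of all genes whose libraries separated in this way was not computed. The median difference of the 7 genes at 7 days was -0.50, where that of all genes was -0.03.

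Of these 6 calls the HNF4A difference was kept without any library (-0.95 to -0.81) and in every alternative. FOXA1 at 7 days was lost without any one of its 4 libraries (-0.57 to -0.44). At 4 days FOXA1 was lost without either GSK591 library (-0.53 and -0.57) and without MS023 replicate 2 (-0.50), and FOXA2 without GSK591 replicate 1 (-0.48) or MS023 replicate 2 (-0.52). At 7 days FOXA2 was lost without either GSK591 library (-0.35 and -0.51) or MS023 replicate 1 (-0.29). FOXA3 was lost without GSK591 replicate 1 (-0.66, adjusted p 0.460), whose library had 12 FOXA3 counts, and without either MS023 library (-0.97 and -1.10). DESeq2 ended the 7-day calls of FOXA1 (adjusted p 0.0641), FOXA2 (0.135) and FOXA3 (0.175), and the pseudogene share as a covariate that of FOXA3 (0.0565).

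**Figure D3:**
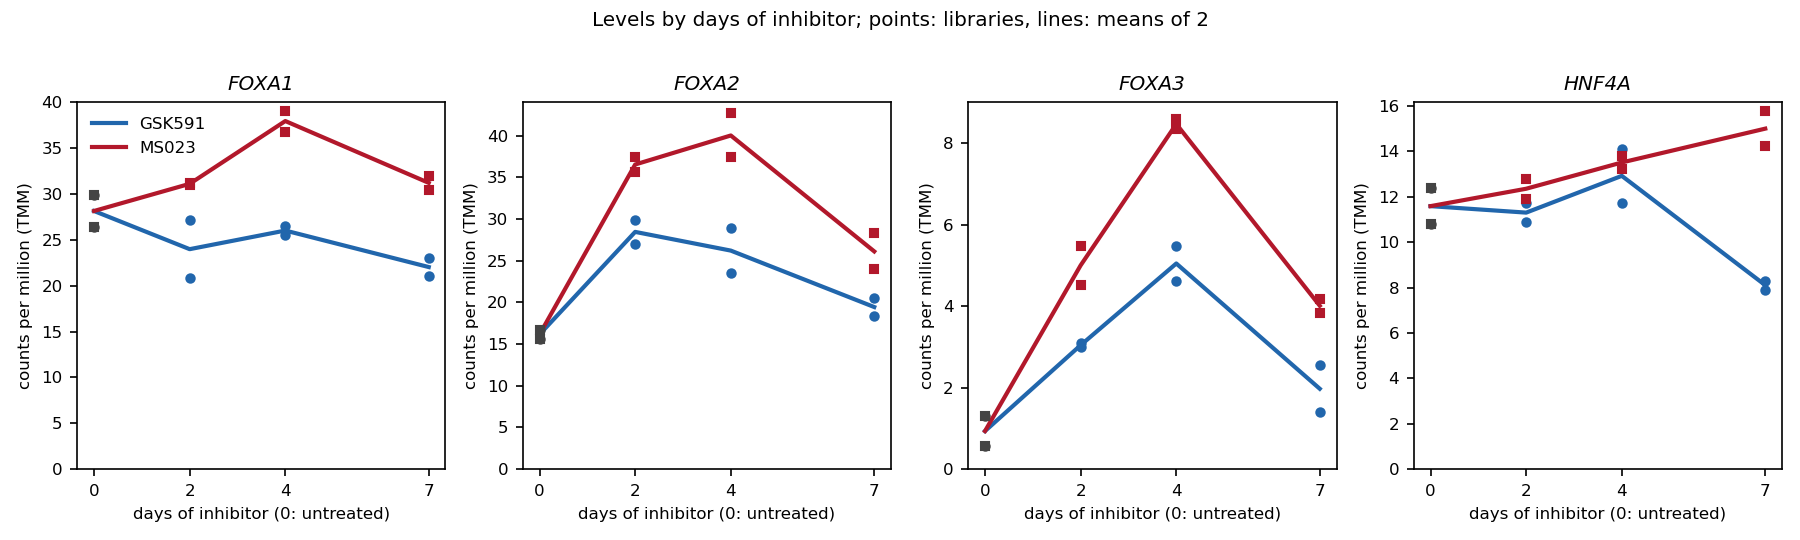
Level (y axis, CPM, from 0) of FOXA1, FOXA2, FOXA3 and HNF4A by days of inhibitor (x axis), with untreated cells at 0; points are libraries and lines join means of 2. FOXA2 and FOXA3 stand highest at 4 days of MS023, and HNF4A separates at 7 days, at means of 8.11 CPM with GSK591 and 15.0 with MS023.

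Steps in time were compared for each inhibitor, a set of comparisons chosen after the data were seen. From 2 to 4 days none of the 7 genes was called for GSK591 (3.39% of all genes) or for MS023 (4.91%); FOXA3 was higher at 4 days in both, by 0.73 (adjusted p 0.227) and 0.76 (adjusted p 0.0772). From 4 to 7 days GSK591 gave 4 calls (8.29%). FOXA3 fell from 5.47 and 4.61 to 1.39 and 2.55 CPM (-1.37, SE 0.34, adjusted p 0.00618). HNF4A fell from 14.1 and 11.7 to 7.90 and 8.31 CPM (-0.68, SE 0.17, adjusted p 0.00790). FOXA2 changed by -0.43 (SE 0.14, adjusted p 0.0395), and GATA6 rose from 0.384 and 1.20 to 1.86 and 2.68 CPM (1.50, SE 0.47, adjusted p 0.0339). MS023 gave 2 calls over the same step (9.04%), FOXA2 at -0.62 (SE 0.12, adjusted p 0.000523) and FOXA3 at -1.08 (SE 0.26, adjusted p 0.00422). FOXA2 and FOXA3 thus fell from 4 to 7 days under both inhibitors. HNF4A fell with GSK591 and was 0.15 higher, not called, with MS023; whether the step differed between the inhibitors was not tested.

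All 6 of these time-step calls were lost without at least 1 library. For GSK591, leaving out replicate 1 of the 7-day group ended each of the 4 calls, with FOXA2 at -0.36, FOXA3 at -0.99, HNF4A at -0.65 and GATA6 at 1.75. Leaving out replicate 2 of that group ended FOXA2 (-0.51), HNF4A (-0.71) and GATA6 (1.23). Without replicate 1 at 4 days FOXA3 gave -1.23, HNF4A -0.52 and GATA6 0.91, and without replicate 2 at 4 days FOXA2 gave -0.28. For MS023, leaving out replicate 2 at 7 days ended both calls (FOXA2 -0.50, adjusted p 0.0543, and FOXA3 -1.01, adjusted p 0.0787). Total counts as scaling ended these too (-0.34 and -0.80) and the GATA6 call (1.05). DESeq2 ended the MS023 call of FOXA3 (adjusted p 0.0667) and the GSK591 calls of FOXA2 (0.151) and GATA6 (0.107), and a fit with no filter that of FOXA2 (0.0513).

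The authors' deposited tables give their own DESeq2 comparison of the same 14 groups with untreated cells, from another counting than the count table. Their mean normalised count was 3.52 times the mean count of the table for HNF4A, 3.45 times for HNF4G and 3.28 times for GATA6, genes whose span is 10.8, 33.1 and 8.39 times their exonic length. For FOXA1, FOXA2, FOXA3 and GATA2, whose span is 1.53 to 4.47 times the exonic length, the ratio was 0.745 to 1.12. Of the genes with an adjusted p there, 3.93% were called with Dex for 15 min and 14.7% to 34.2% in the other groups. From the count table these shares were 1.26% and 5.64% to 26.8% of all tested genes. The share of all genes called was higher there in each of the 14 comparisons. For the FOXA genes both sources gave like calls. In the authors' deposited tables FOXA1 was called in 7 comparisons, of which 6 were called here, FOXA2 in 7 with 5 called here, and FOXA3 in 6 with all 6 called here, in the same direction each time. The largest change, FOXA3 after 4 days of MS023, was 2.97 in the authors' deposited table beside 3.14 in the count table. The sizes of change in the 2 sources may not be the same measure. FOXA3 after 2 days of GSK591 had 0.27 (SE 0.49) there with a DESeq2 p of 0.0170, lower than that change and SE alone would give. It was 1.67 here.

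The sources parted for the HNF4 and GATA genes, with no call in opposite directions. HNF4A was called higher in 7 comparisons of the authors' deposited tables, where 19.8% to 30% of all genes were called. None of those 7 HNF4A calls was made from the count table. It was 0.38 higher after 3 h of Dex there (adjusted p 0.00252) and -0.25, not called, here. After 7 days of GSK591 the authors' deposited table has -0.18 for HNF4A (adjusted p 0.224), where the count table gave -0.52. HNF4G was called higher in 5 of the authors' deposited tables, beside 22% to 30% of all genes, and in none here. There it rose by 0.72 after 4 and after 7 days of MS023, and by 0.89 and 0.64 with Dex for 15 min and 3 h after MS023. GATA2 was called lower in 2 of the authors' deposited tables, after 7 days of either inhibitor with 15 min of Dex (-0.76 with GSK591 and -0.79 with MS023). GATA6 was called at 0.81 after GSK591 with 15 min of Dex (adjusted p 0.00171) and at -0.60 after 3 h of Dex (adjusted p 0.0424) in the authors' deposited tables. The call of GATA6 after MS023 with 15 min of Dex was not made in them.

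**Figure D4:**
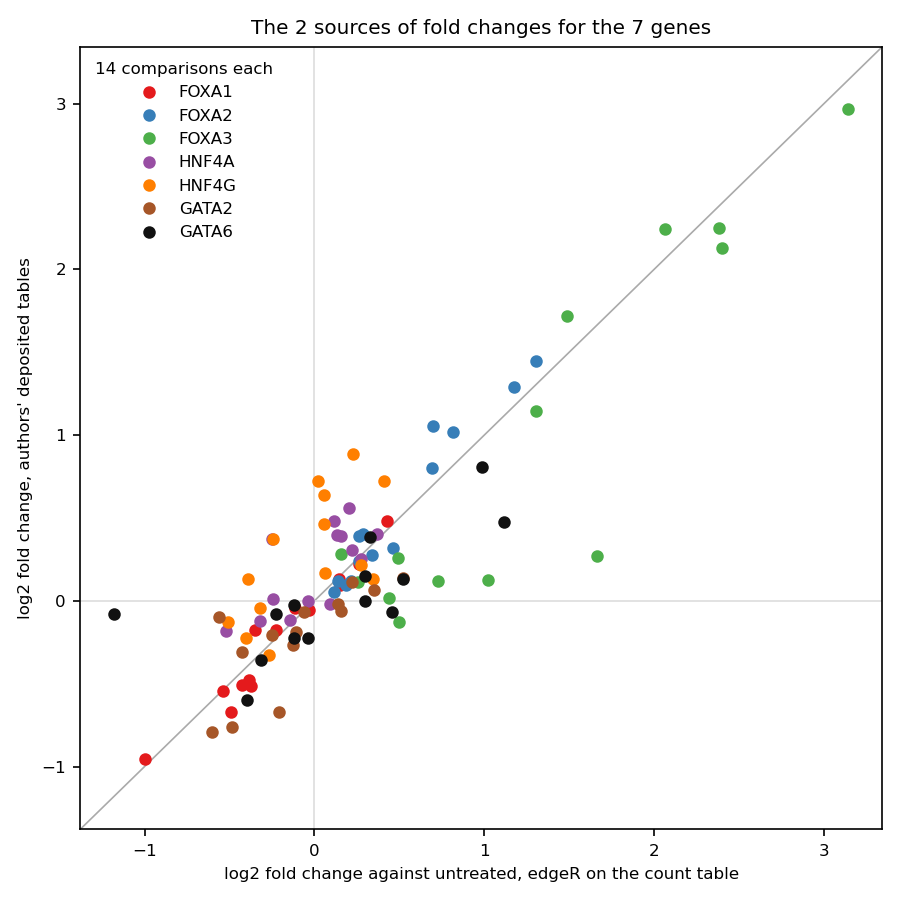
Log2 fold change against untreated cells from the edgeR fit of the count table (x axis) and from the authors' deposited tables (y axis), with 14 comparisons for each of the 7 genes and a line of equality. FOXA3 after 4 days of MS023 lies at the top right (3.14 and 2.97), and HNF4G lies above the line in 11 of 14 comparisons.

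Some genes followed the members closely across the groups. Likeness was the Pearson correlation of the group means of log2 (CPM + 0.5) over the 15 groups, among 9627 or 9628 other protein-coding genes whose mean level was 5 CPM or more; the groups share scaling factors, and with this many candidates high values are bound to occur, so it is a description. FOXA1 was most like GCLC (0.93), MTPAP (0.92) and USP3 (0.92). Among the genes most like FOXA2 were IER5L (0.90) and CNFN (0.89), and FOXA3 was most like ACOT4 (0.93), CNFN (0.92) and ATP2A3 (0.92). HNF4A was most like CPLX2 (0.86), CD164 (0.82) and METTL7B (0.81), and HNF4G most like SH3PXD2A (0.87), PTP4A1 (0.87) and IER3 (0.86). GATA2 was most like ZNHIT1 (0.90), SPINDOC (0.89) and RHBDF1 (0.89), and GATA6 most like PTCD2 (0.90), RCAN1 (0.85) and TRRAP (0.82). Among the 7 genes themselves FOXA2 and FOXA3 had the highest correlation (0.89), followed by FOXA1 and HNF4G (0.62) and FOXA1 and FOXA3 (0.60). GATA2 had a negative correlation with each of the other 6, from -0.59 with HNF4G to -0.09 with FOXA2.

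Among other lineage factors of the same network, more were called higher than lower with both inhibitors. They were listed with earlier results of these data known, so the shares below are a description. A gene near 0 in untreated cells can pass the filter on low counts through the groups where it is high. Of the tested factors PDX1 averaged 0.423 CPM and ONECUT3 0.546. Of 30 listed factors related to these 7 (other GATA genes, HNF1, ONECUT, SOX, CDX and orphan receptors), 23 were tested. With MS023, 11 were called higher and 0 lower at 2 days. This was 12 and 1 for the 4-day group and 11 and 2 for the 7-day group, with medians of 0.67, 0.59 and 0.49. The shares called were 47.8%, 56.5% and 56.5%, beside 10.4%, 14.2% and 13.6% of all genes. With GSK591 these were 6 and 0, 6 and 0, and 4 and 0, with medians of 0.56, 0.19 and 0.32; the medians of all genes in these 6 comparisons were -0.00 to 0.01. The shares called with GSK591 were 26.1%, 26.1% and 17.4%, beside 5.64%, 17.2% and 13.2% of all genes, so that at 7 days was near the background. GATA5, a GATA factor of gut and heart, rose by 2.16 after 7 days of MS023 and 2.11 after 7 days of GSK591. ONECUT1 (also called HNF6) rose by 2.07 and ONECUT2 by 1.89 after 7 days of MS023. EHF, an epithelial ETS factor, rose by 2.76 and NR2F1 by 1.57 after 7 days of GSK591. GATA3 fell by 1.05 and SOX17 by 0.55 after 7 days of MS023. After 3 h of Dex, 1 of the 23 was higher, NR2F6 (0.72), and 4 were lower, among them NR5A2 (-0.79), HHEX (-0.58) and CDX2 (-1.44), a share of 21.7% beside 10.5% of all genes.

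Of 22 partners and regulators of the 7 genes (cofactors and signalling ligands), 20 were tested. The lists in this paragraph were likewise chosen with earlier results of these data known. After 7 days 2 were called higher with GSK591, a share of 10% that lay below the 13.2% of all genes, and 5 with MS023, 25% beside 13.6%. None was called lower. BMP4, a ligand upstream of GATA factors in foregut, rose by 1.73 after GSK591 and 1.90 after MS023. LMO4 rose by 0.50 after GSK591, and ZFPM2, a cofactor of GATA factors, by 1.05 after MS023. TLE3, a corepressor, rose by 1.01 after 3 h of Dex, the 1 call in this group at that time, and by 0.69 after 7 days of MS023. Of 4 tested noncoding neighbours of the 7 genes (5 listed), 1 was higher after 4 days of MS023 and 1 after GSK591 with 15 min of Dex, both GATA6-AS1. With so few genes, 1 call is a share of 25%, beside 14.2% and 15.5% of all genes in these 2 comparisons. In the other 29 comparisons none of these 4, which were LINC00261, GATA6-AS1, GATA2-AS1 and HNF4A-AS1, was called. There 0% to 26.8% of all genes were called.

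Known liver and gut target genes of FOXA and HNF4 factors were tested for 22 of 40 listed names. This list too was chosen with earlier results of these data known. Among the tested genes APOH averaged 0.455 CPM, F5 0.504, MTTP 0.631 and F7 0.650. A gene near 0 in untreated cells can pass the filter only through groups where it is high, and can hardly be called lower. The split by direction and the medians are therefore descriptions. After 4 days 10 were higher and 0 lower with each inhibitor, a share of 45.5% beside 17.2% (GSK591) and 14.2% (MS023) of all genes, with medians of 1.23 and 0.97. After 7 days it was 6 higher and 1 lower with GSK591 (median 0.53, 31.8% beside 13.2%) and 8 higher and 0 lower with MS023 (median 1.11, 36.4% beside 13.6%). After 3 h of Dex 2 were higher and 1 lower, with a median of -0.03, and the share of 13.6% was near the 10.5% of all genes. FGA, the fibrinogen alpha chain, rose by 1.77 after 3 h of Dex, 1.42 after 7 days of GSK591 and 2.67 after 7 days of MS023. FGG, the fibrinogen gamma chain, rose by 2.64 after 7 days of MS023, and LGALS4, a gut lectin, by 0.87 after 3 h of Dex. The retinol carrier RBP4 rose by 1.84 and 1.92 after 7 days of GSK591 and MS023, and the drug-metabolising enzyme CYP3A5 by 1.92 after GSK591. CYP24A1, which degrades vitamin D, fell by 2.02 after 3 h of Dex and by 0.43 after 7 days of GSK591.

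Among lung epithelial genes 13 of 20 were tested. The same limits of the filter and of the choice of the list apply to them. After 3 h of Dex 3 were higher and 1 lower, after 7 days of GSK591 6 and 0, and after 7 days of MS023 2 and 2. The shares called were 30.8%, 46.2% and 30.8%, beside 10.5%, 13.2% and 13.6% of all genes, and the medians were 0.33, 0.65 and 0.21. The surfactant gene SFTPC rose by 1.94, 1.44 and 1.59 in these groups, from a mean of 0.631 CPM in untreated cells. The membrane mucin MUC1 rose by 1.73 after 3 h of Dex and by 0.93 after 7 days of GSK591. The gel-forming mucins went in opposite directions after 7 days of MS023, where MUC5AC fell by 2.36 and MUC5B rose by 1.23; after 3 h of Dex MUC5B fell by 0.78. The lipid transporter ABCA3 rose by 0.92 after 3 h of Dex and the protease NAPSA by 1.06 after 7 days of GSK591. LPCAT1, which makes surfactant phospholipid, fell by 0.44 after 7 days of MS023.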

How the data were processed

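PRO-seq counts of 30 A549 libraries were analysed from a deposited table of whole-number counts per gene, not normalised by the authors. The submitters' processing notes name featureCounts 2.0.1 (Subread) and hg38; the aligner, the feature type and the use of strand are not given in the sources used here. The authors' deposited comparison tables (14) hold, per the file headers, a mean signal of normalised counts, log2 fold changes, SEs and p-values from DESeq2. Groups came from the sample labels, and 0 sample columns were left unused.

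Counts were filtered (filterByExpr, minimum 10 in a library and 15 in total, 22919 genes kept), scaled by TMM and fitted in 1 edgeR 4.0.16 quasi-likelihood model (robust, R 4.3.3, limma 3.58.1) of 15 groups without covariate, with 15 residual degrees of freedom. P-values were adjusted by Benjamini-Hochberg within each of 31 comparisons, with a threshold of 0.05, and 4 of these (steps in time) were added after seeing the data. The common biological coefficient of variation was 10.6%. The SE is the log2 fold change divided by the root of the F statistic. P-values measure the spread between the 2 libraries of a group, which may be technical, and PCR reads without molecular identifiers are not independent molecules. The procedure was tested on simulated data.

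Alternatives were DESeq2 size factors, total counts, no filter, a replicate block, DESeq2 1.42.0, the compared groups alone, no mitochondrial and rRNA genes, the processed-pseudogene share as covariate, and each library left out. The 7 genes were named by the rule that they are the members, beside the 3 genes most like each, annotated neighbours within 20 kb and, from each list at Dex 3 h and 7 days of either inhibitor, the 3 largest called rises and falls with a mean of at least 1 CPM. One gene that this rule names is not reported here. The members and lists were chosen with earlier results of these data known.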

Additional observations from a re-analysis of the deposited data

Results flagged for a closer look

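The inhibitors' effects differed by the edgeR test between GSK591 and MS023 at the same time for 6 results, each lower with GSK591. After 4 days these were FOXA1 (-0.55 on the log2 scale) and FOXA2 (-0.61). After 7 days they were FOXA1 (-0.50), FOXA2 (-0.43), FOXA3 (-1.04) and HNF4A (-0.89).

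The effect of an inhibitor differed between 4 and 7 days for another 6, in comparisons added after the data were seen. With GSK591, FOXA2 (-0.43), FOXA3 (-1.37) and HNF4A (-0.68) were lower at 7 days and GATA6 (1.50) was higher. With MS023, FOXA2 (-0.62) and FOXA3 (-1.08) were lower at 7 days.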

How the results depend on the processing

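Of the 37 calls, 11 were kept in all alternatives and without any single library. They are FOXA2 after GSK591 at 2 and 4 days and MS023 at 2, 4 and 7 days, FOXA3 after GSK591 at 4 days and MS023 at 2, 4 and 7 days, FOXA1 after GSK591 with 3 h of Dex, and HNF4A between the inhibitors at 7 days. The 21 calls against untreated became 37 under total counts and 12 under DESeq2, and 13 to 22 with a library left out. In these comparisons total counts called 1.14% to 70.7% of all genes. The 4 calls of Dex after an inhibitor became 0 under total counts and 3 under DESeq2, and 1 to 4 with a library left out. Here total counts called 0.31% to 5.95% of all genes. DESeq2 gave no adjusted p for some of the calls. These were counted as not lost there, although DESeq2 could not test them. The 6 calls between the inhibitors became 10 under total counts and 3 under DESeq2, and 3 to 6 with a library left out. Between the inhibitors total counts called 4.83% of all genes at 2 days, 5.93% at 4 days and 69.9% at 7 days. The 6 calls between times became 3 under DESeq2 and 10 in a fit of the compared groups alone, and 2 to 7 with a library left out. Total counts turned the sign of FOXA1 (0.62) and GATA2 (0.88) after MS023 with 3 h of Dex and of GATA2 (0.76) after 7 days of MS023, against untreated. Total counts shifted the median of all genes by -1.04 (GSK591 against MS023, both for 7 days) to 1.02 (MS023 for 7 days against untreated). With the replicate number as a replicate block there were 37 calls in all. Same-numbered libraries of 2 groups deviated together with r of -0.457 to 0.497 (median 0.0147 over 105 pairs of groups). In 20 of these pairs r was over 0.1. The numbers showed no common pairing across the series, and shared handling of some groups was not tested. The totals were 36 with the DESeq2 size factors, 34 without the filter, 37 without mitochondrial and rRNA genes, and 45 with the pseudogene share as covariate. Leaving out a library was run for the comparisons of its group only, and a lone library is then assumed to vary like the other groups. GATA6 and FOXA3 had under 20 counts in some libraries, which limits both.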

Other observations

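Neighbouring genes of the 7 were not all at the same level as the member beside them. IRF2BP1, a transcriptional corepressor gene 9810 bp from FOXA3 on the opposite strand, had 29.6 and 29.9 CPM in untreated cells. After 2 days of MS023 it had 56.3 and 61.3 CPM and after 4 days 49.0 and 56.7. It was higher by 0.98 (edgeR adjusted p 1.57e-07) and 0.83 (adjusted p 2.68e-06) on the log2 scale. SYMPK, 699 bp from FOXA3 on its other side, was lower after 4 days of GSK591 (-0.48, adjusted p 0.000731), where FOXA3 rose.

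LINC01620, a noncoding RNA gene 1576 bp past HNF4A on the opposite strand, had 1 and 0 counts in untreated libraries. It had 5 and 10 counts after 3 h of Dex, 11 and 11 after GSK591 with 3 h of Dex, and 17 and 9 after MS023 with 3 h of Dex. These were called higher by edgeR (adjusted p 0.0190, 0.00140 and 0.00453). HNF4A itself was not called in these groups.

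TTC6, whose first exon overlaps FOXA1 by 16 bases on the opposite strand, was called higher after 4 days of MS023 (0.83, adjusted p 0.0314) and lower after GSK591 with 3 h of Dex (-0.88, adjusted p 0.0487), as FOXA1 was. The share of reads that either gene takes from the other was not tested.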
